A study of Mus musculus with 35 samples.

Results

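Livers of old mice taken 48 h after partial hepatectomy (PH) were compared with livers of young mice taken 38 h after PH, a pairing that allows old livers 10 h more and asks which genes still differ by age once such a delay is granted. Both groups were defined by the sample labels, and the comparison was chosen with earlier results of these data known. It uses 6 of the 35 arrays of the series, 3 for each group. All 18193 genes that have a probe set of 1 gene symbol were tested. All mice were males of the CB6F1 hybrid strain without a transgene or mutation named in the labels. The old PH 48 h livers came from mice of 25 to 27 months supplied by the National Institute on Aging, and the young PH 38 h livers from mice of 5 to 6 months supplied by Jackson Laboratories, so age and supplier cannot be told apart. Mice were anaesthetised with avertin and isoflurane, and 70% of the liver mass was removed. The other groups used here are untreated livers of both ages (3 arrays each), sham-operated livers, whose lobes were handled but left in place (old 2 arrays at 24, 38 and 48 h, young 2, 1 and 2), and the remaining PH livers of both ages (3 arrays per time). Since 38 h and 48 h differ by 10 h, the livers compared were also taken at times of day 10 h apart if surgery was done at one hour, which the labels do not give.

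After PH the quiescent hepatocytes of the remnant re-enter the cell cycle nearly in step. Cyclin E with its kinase and the E2F transcription factors switch on the genes of DNA replication as cells pass from G1 into S phase, and these genes decline again as cells move on to G2 and mitosis, when a second set of genes, for the spindle, its checkpoint and the anaphase-promoting complex, is transcribed. In old rodents the liver regrows more slowly and its hepatocytes enter S phase later.

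Signals are the authors' RMA values on the log2 scale, so that a difference of 1 is a doubling. Each difference is the mean of the old PH 48 h arrays minus that of the young PH 38 h arrays, given with the standard error of a limma fit to all 35 arrays, and "rose" and "fell" mark a Benjamini-Hochberg adjusted p under 0.05 over 18193 genes. The labels do not say that replicate arrays are separate animals, so the p-values measure only the spread between these samples, which may be technical. Arrays have no read depth, and their number limits the precision. In bulk tissue, fewer cells of a type and less RNA per cell cannot be told apart. Each array of the comparison correlated with those of its own group at a median r of 0.9878 to 0.9954 across genes. The lowest of these belonged to replicate 3 of the young PH 38 h group, which stood apart from its group in mitotic genes. The mean signal of the 43 mitosis genes was 9.92 on that array, against 8.96 and 8.95 on the other two. Albumin (Alb), the main plasma protein of hepatocytes, lay between 14.85 and 14.94 on all 6 arrays. The highest of all deposited values was 15.01, so Alb lay near the top of the scale.

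With the delay allowed for, 345 genes, 1.90% of those tested, differed between old PH 48 h and young PH 38 h livers. Of these, 194 (1.07%) rose and 151 (0.830%) fell in old livers, and 36 did so by 2-fold or more (21 higher and 15 lower). The median size of a called difference was 0.54 on the log2 scale. In 341 of the 345 genes the 3 old and the 3 young arrays did not overlap, as was also the case for 4883 genes (26.8%) of all tested. At an unadjusted p under 0.05 there were 2837 genes, 15.6% of those tested. The count was lower with any 1 of the 6 arrays left out, which also leaves fewer arrays in its group. Among the old arrays, leaving out replicate 1 gave 51 genes, replicate 2 gave 57 and replicate 3 gave 198. Among the young arrays, replicate 1 gave 295, replicate 2 gave 54 and replicate 3 gave 249. On the same old arrays, 15 genes (0.0824%) differed from young livers at 48 h. At 38 h the age comparison gave 366 genes (2.01%), on the same young arrays. Genes that differed by 2-fold or more in their means, with no test, numbered 275 for old PH 48 h against young PH 24 h livers, 95 against young PH 38 h livers and 45 against young PH 48 h livers.

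The largest called fall was in Ccne2, which encodes cyclin E2, a partner of CDK2 at the entry to S phase. Its signal was 5.68, 6.14 and 6.67 in old PH 48 h livers, against 8.65, 8.33 and 8.58 in young PH 38 h livers. Every old array lay more than 1.5 log2 units under every young one, a difference of -2.36 ± 0.35 (5.12-fold lower, limma adjusted p = 0.00211). Ccne1, for cyclin E1, read 8.71, 8.80 and 8.84 in old livers, against 9.90, 10.10 and 10.17 in young livers. The old arrays were tightly grouped and about a full log2 unit under the lowest young array (-1.28 ± 0.20, limma adjusted p = 0.00225). E2f1, an activator of S phase genes and itself a target of E2F, fell by 0.79 ± 0.16 on the log2 scale (limma adjusted p = 0.0114), with signals of 8.62, 8.79 and 8.91 in old livers and 9.24, 9.53 and 9.92 in young livers. These were the 3 of 26 measured G1 regulators that passed, all of them lower, against 0.830% of all genes that fell. The median of the list was -0.14. Cyclin D1 (Ccnd1), which acts earlier in G1, was 12.11, 11.70 and 11.57 in old livers and 12.05, 11.99 and 11.80 in young livers, overlapping groups with a difference of -0.15 ± 0.48 that did not pass.

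Genes of DNA replication fell in part. Of 37 measured S phase genes, 8 fell and 0 rose (25 had an unadjusted p under 0.05 in limma), 36 lay under 0, and in 23 of the 37 the groups did not overlap. Over all genes tested 0.830% fell, 15.6% had such an unadjusted p, and in 26.8% the groups did not overlap. The median difference was -0.62, against -0.003 over all genes, of which 9231 lay under 0. Cdc6, which loads the replicative helicase onto origins, was 5.88, 6.35 and 6.65 in old PH 48 h livers, against 8.14, 8.21 and 7.85 in young PH 38 h livers. All old arrays lay at least a log2 unit under the young ones, and the difference of -1.77 ± 0.38 passed in limma (adjusted p = 0.0186). Uhrf1, which carries DNA methylation through replication, read 7.85, 7.79 and 7.84 in old livers and 8.93, 8.93 and 9.52 in young livers. Here the old arrays were nearly identical, and the gap of -1.30 ± 0.25 passed as well (limma adjusted p = 0.00983).

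The helicase subunits Mcm2 and Mcm3 fell by 1.13 ± 0.26 and by 1.07 ± 0.20 on the log2 scale. Mcm3 signals were 8.39, 8.40 and 8.98 in old livers, against 9.47, 9.79 and 9.70 in young livers, without overlap. Pcna, the sliding clamp of the replication fork, fell by 0.95 ± 0.23, with signals between 11.98 and 12.51 in old livers and between 13.02 and 13.35 in young livers. Slbp, which binds histone mRNA (-0.95 ± 0.20), Chaf1b, of the histone chaperone behind the fork (-0.83 ± 0.20), and Pola2, of DNA polymerase alpha (-0.49 ± 0.11), fell too. Other members were as low without passing, with wider errors. Mcm6, another helicase subunit, differed by -1.42 ± 0.52 (limma adjusted p = 0.162), and Rrm2, of the enzyme that makes deoxynucleotides, by -1.27 ± 0.53 (0.237). Without the old PH arrays of 24 and 38 h, which enter the fit only through the shared spread, 20 of the 37 fell. Leaving out single arrays gave medians between -0.77 and -0.52, but the count of falls was 1 without replicate 1 or replicate 2 of the old group and 3 without replicate 2 or replicate 3 of the young group.

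**Figure D1:**
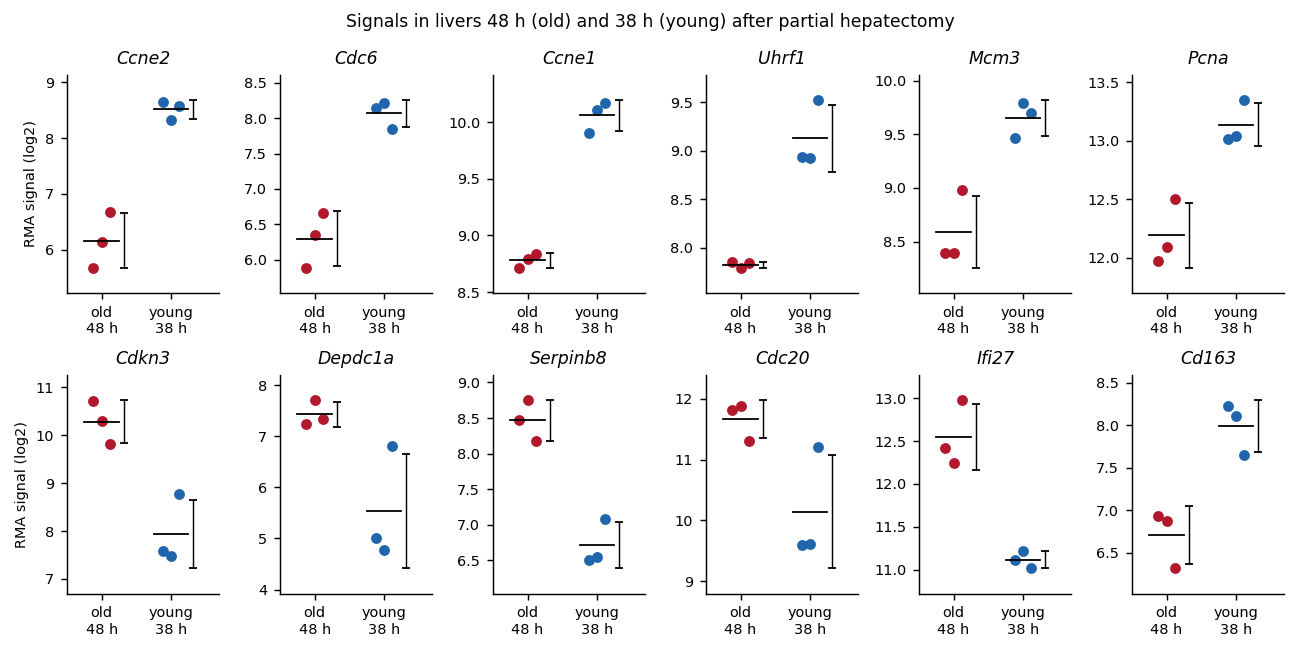
RMA signals (log2, vertical axes) of 12 genes on each array, with old livers 48 h after PH at the left of each panel and young livers 38 h after PH at the right; points are arrays, horizontal bars are means and vertical bars are 1 SD (n = 3 each). Ccne2, Cdc6, Ccne1, Uhrf1, Mcm3, Pcna and Cd163 are lower in old livers and Cdkn3, Depdc1a, Serpinb8, Cdc20 and Ifi27 higher, and 1 young array stands above the other two in Cdkn3, Depdc1a, Serpinb8 and Cdc20.

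4 further genes among the 12 largest falls were Tcf19 (-1.47 ± 0.37), a transcription factor gene expressed at the start of S phase, Zfp367 (-1.20 ± 0.30), a zinc finger gene, Slfn9 (-1.35 ± 0.24), of the Schlafen family, and Tcp11x2 (-1.14 ± 0.27). Slfn9 was 7.83, 8.21 and 8.69 in old livers, against 9.14, 9.65 and 9.97 in young livers, again without overlap.

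The promoters of Cdc6 and Uhrf1 are shown because E2F-type sites are the element through which E2F proteins reach S phase genes. The windows are the 250 bases before the RefSeq start in build GRCm38.p6, chr11:98907901-98908150 on the plus strand for Cdc6 and chr17:56303087-56303336 on the plus strand for the first of the starts listed for Uhrf1. Capitals mark matches to TTNNCGC on either strand, and in Uhrf1 the 2 matches lie end to end without sharing a base.
Cdc6: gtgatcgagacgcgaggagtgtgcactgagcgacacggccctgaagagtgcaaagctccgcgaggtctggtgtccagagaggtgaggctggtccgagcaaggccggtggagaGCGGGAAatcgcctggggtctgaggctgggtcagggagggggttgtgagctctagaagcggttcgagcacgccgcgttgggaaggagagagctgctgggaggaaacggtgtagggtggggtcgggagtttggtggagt
Uhrf1: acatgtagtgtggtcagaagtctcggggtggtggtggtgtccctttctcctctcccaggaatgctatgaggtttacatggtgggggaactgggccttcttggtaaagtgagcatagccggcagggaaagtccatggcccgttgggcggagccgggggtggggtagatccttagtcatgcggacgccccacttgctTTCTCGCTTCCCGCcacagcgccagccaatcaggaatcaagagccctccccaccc
The match begins 138 bases before the start in Cdc6, and those of Uhrf1 begin 55 and 48 bases before it. The Uhrf1 window ends at the gene boundary given by RefSeq and the Cdc6 window does not. TTNNCGC was present in 58.3% of the 36 windows matched to S phase genes and in 43.6% of those matched to mitosis genes, against 23.0% of the windows of all genes tested and 17.0% of all 32851 windows in the table. Genes that fell had it in 28.9% and genes that rose in 24.7% of their windows. Among other genes named above that fell, Chaf1b, Tcf19 and Zfp367 had a match. Ccne1, Pcna, Mcm2, E2f1, Slbp and Slfn9 had none, and Ccne2 had no window. The windows of Mcm3, Pola2 and Tcp11x2 were not looked at singly. A match is a description of the letters in the window, not of binding.

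Mitotic genes mostly lay above 0, and how many passed depended on the arrays fitted. Cdkn3, a phosphatase acting on cyclin-dependent kinases that peaks in mitosis, had the largest called rise, with 10.72, 10.30 and 9.82 in old PH 48 h livers, against 7.58, 7.47 and 8.76 in young PH 38 h livers. The lowest old array was a log2 unit above the highest young array, and the difference was 2.35 ± 0.30 (5.08-fold, limma adjusted p = 0.000356). Depdc1a, expressed in dividing cells and needed for mitotic progression in human cells, read 7.24, 7.71 and 7.35 in old livers and 5.02, 4.77 and 6.82 in young livers (1.90 ± 0.34, limma adjusted p = 0.00762). Cdc20, the activator of the anaphase-promoting complex, was 11.81, 11.88 and 11.31 in old livers, against 9.60, 9.61 and 11.21 in young livers (1.53 ± 0.40, limma adjusted p = 0.0464). In both genes young replicate 3 stood far above the other young arrays, and for Cdc20 it nearly met the lowest old array. The other probe sets of Cdc20 differed by 0.24 and 1.19 without passing, and the call was lost under 10 of 16 alternative settings.

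Of 43 measured mitosis genes 38 lay above 0, with a median of 0.52, but Cdc20 was the 1 that rose, and 0 fell (16 had an unadjusted p under 0.05 in limma). The groups did not overlap in 6 of the 43 genes, against 26.8% of all genes tested, of which 15.6% had an unadjusted p under 0.05. Ccnb2, for cyclin B2, differed by 1.69 ± 0.45 (limma adjusted p = 0.0528) and Ube2c, the ubiquitin-conjugating enzyme of the anaphase-promoting complex, by 1.22 ± 0.57 (0.296). The proliferation marker Mki67 was 10.90, 11.30 and 11.21 in old livers and 10.03, 9.54 and 11.38 in young livers, and the mitotic kinase Cdk1 was 12.21, 12.33 and 12.09 in old livers and 11.27, 11.36 and 12.43 in young livers. In both genes 1 young array, replicate 3, lay above all old arrays, so the groups overlapped. Without that array 8 of the 43 genes rose and the median was 0.83. Without any other single array of the 6, the count was 0 or 1. Without the old PH arrays of 24 and 38 h it was 14, and with quantile normalization repeated it was 0. Foxm1, a transcription factor of mitotic genes, differed by -0.05 ± 0.13, and topoisomerase II alpha (Top2a) by 0.14 ± 0.51, neither passing.

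**Figure D2:**
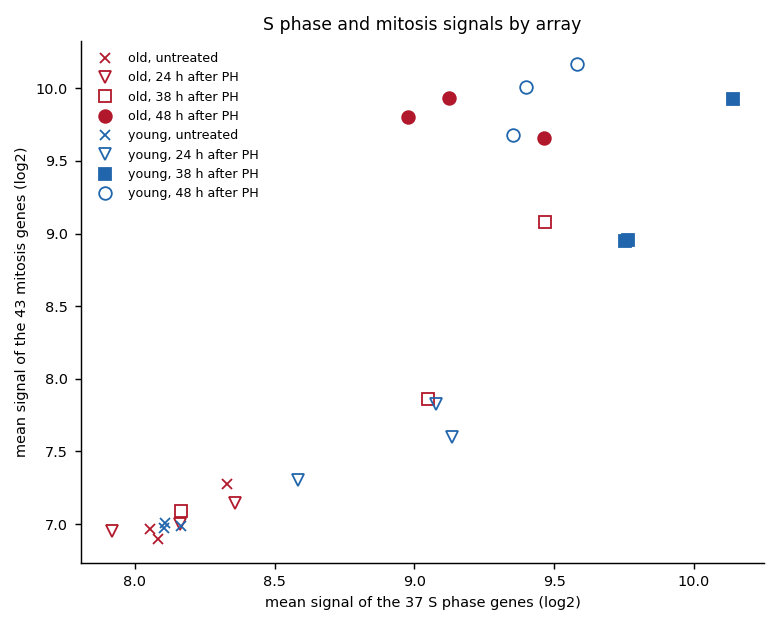
Mean signal (log2) of the 37 S phase genes (horizontal axis) against that of the 43 mitosis genes (vertical axis) on each untreated and PH array; filled symbols are the arrays compared, old 48 h (red circles) and young 38 h (blue squares). The old 48 h arrays lie between 8.98 and 9.46 in S phase genes, all under the young 38 h arrays at 9.75 to 10.14, and between 9.66 and 9.94 in mitosis genes, where 1 young 38 h array at 9.92 lies within their range.

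The promoters of Cdkn3, Depdc1a and Cdc20, of which Cdc20 alone is in the mitosis list, are shown for the cell cycle homology region, the element through which repressor and activator complexes time transcription to G2 and mitosis. They are the 250 bases before the RefSeq start in GRCm38.p6, chr14:46760291-46760540 (plus strand) for Cdkn3, chr3:159495183-159495432 (plus strand) for Depdc1a and chr4:118437344-118437593 (minus strand) for Cdc20, with matches to TTTGAA on either strand in capitals.
Cdkn3: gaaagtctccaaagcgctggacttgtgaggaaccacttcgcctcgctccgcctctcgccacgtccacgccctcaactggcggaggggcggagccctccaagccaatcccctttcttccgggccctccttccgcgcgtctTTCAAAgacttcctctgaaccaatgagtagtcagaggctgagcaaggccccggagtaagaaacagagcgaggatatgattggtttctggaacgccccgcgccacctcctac
Depdc1a: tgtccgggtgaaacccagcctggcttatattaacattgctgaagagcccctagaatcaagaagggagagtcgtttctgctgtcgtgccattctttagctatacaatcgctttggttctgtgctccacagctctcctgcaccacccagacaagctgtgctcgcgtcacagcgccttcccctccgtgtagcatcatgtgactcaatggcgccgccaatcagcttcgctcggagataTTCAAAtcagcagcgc
Cdc20: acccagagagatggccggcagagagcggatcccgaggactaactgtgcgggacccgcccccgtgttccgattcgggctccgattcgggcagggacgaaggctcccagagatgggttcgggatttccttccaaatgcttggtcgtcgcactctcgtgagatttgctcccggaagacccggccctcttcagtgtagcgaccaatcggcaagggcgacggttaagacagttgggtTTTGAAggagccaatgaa
The match begins 111 bases before the start in Cdkn3, 16 bases before it in Depdc1a and 18 bases before it in Cdc20. The Cdc20 window ends at the gene boundary given by RefSeq and those of Cdkn3 and Depdc1a do not. TTTGAA was present in 41.0% of 39 windows of mitosis genes and 11.1% of S phase windows, against 11.9% of the windows of all genes tested and 16.0% of all windows in the table. It was present in 15.3% of the windows of genes that rose and in 11.8% of those of genes that fell. Among other windows looked at singly, that of Ska3 had a match, and those of Cdc25b, Nek2, Arhgef39 and Pttg1 had none. Of the further genes that fell and were looked at singly, Mcm2 had a match. Ccne1, Pcna, E2f1, Slbp, Chaf1b, Tcf19, Slfn9 and Zfp367 had none. CCAAT, the box that commonly lies beside it, was found in 82.1% of mitosis windows and 58.3% of S phase windows, against 34.7% of the windows of all genes tested and 33.8% of all windows in the table.

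By construction, the difference studied is the sum of the old minus young difference at 48 h and the change in young livers between 38 and 48 h, which share arrays with it and are given only side by side. For Ccne2 these were 0.04 ± 0.35 and -2.39 ± 0.35, and for Cdc6 -0.16 ± 0.38 and -1.61 ± 0.38. For Cdkn3 they were -0.42 ± 0.30 and 2.77 ± 0.30, and for Cdc20 -0.39 ± 0.40 and 1.92 ± 0.40. In these 4 genes the part between young time points passed the test in limma (adjusted p = 0.000965, 0.0299, 2.46e-05 and 0.0165) and the age part at 48 h did not. The 4 were chosen after their values were seen, and other genes that fell divide differently. Mcm2 had -0.56 ± 0.26 for old minus young at 48 h and -0.57 ± 0.26 for young 48 h minus 38 h, neither passing. Neither part passed in Uhrf1 (-0.43 and -0.88), Mcm3 (-0.48 and -0.59) and Pcna (-0.25 and -0.69), given in the same order. For the S phase list the medians were -0.23 for old minus young at 48 h, with 0 calls in limma, and -0.39 for young 48 h minus 38 h, with 2 falls (0.220% of all genes fell). For the mitosis list they were -0.11, with 0 calls, and 0.58, with 3 rises (1.04% of all genes rose).

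The courses of single genes show where the groups stand. Ccne2 averaged 5.01 ± 0.20, 6.08 ± 1.03 and 6.16 ± 0.50 in old livers at 24, 38 and 48 h after PH (SD, n = 3 each), and 6.81 ± 0.80, 8.52 ± 0.17 and 6.13 ± 0.22 in young livers. The level of young livers at 38 h was not met on any old array at the 3 times sampled. Cdkn3 averaged 6.82 ± 0.12, 7.49 ± 0.84 and 10.28 ± 0.45 in old livers and 6.98 ± 0.13, 7.94 ± 0.72 and 10.71 ± 0.39 in young livers, so that at 48 h both ages were high. Serpinb8, an intracellular protease inhibitor outside the cell cycle lists, had the same shape, with 6.33 ± 0.12, 6.46 ± 0.19 and 8.47 ± 0.29 in old livers and 6.32 ± 0.18, 6.71 ± 0.32 and 8.57 ± 0.50 in young livers.

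**Figure D3:**
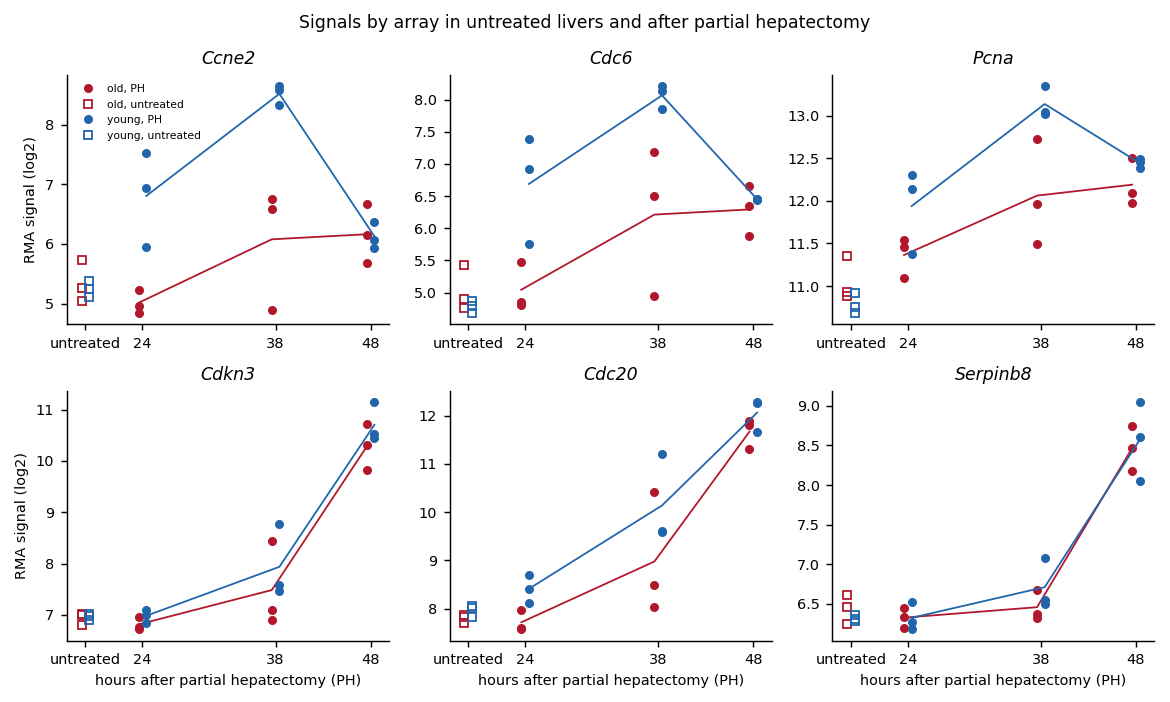
RMA signals (log2) of 6 genes on each array of untreated livers (open squares) and of livers 24, 38 and 48 h after PH (points, with lines through the means), old in red and young in blue. Ccne2, Cdc6 and Pcna are highest in young livers at 38 h, and Cdkn3, Cdc20 and Serpinb8 are highest at 48 h in both ages.

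A second pair with a similar delay, old PH 38 h against young PH 24 h livers (14 h apart), shares no array with the first. It called 255 genes (1.40%), of which 12 were also called in the same direction in old 48 h against young 38 h livers and 11 in the opposite direction (3.48% of the 345 and 4.71% of the 255 for the same direction). Ccne1 differed by -1.28 ± 0.20 here and by 0.62 ± 0.20 in that pair, and the difference between the pairs, -1.89 ± 0.28, passed in limma (adjusted p = 0.00185). Mcm3, Chaf1b, Tyms, for thymidylate synthase, and Fen1, the flap endonuclease, were the 4 of 37 S phase genes whose gaps differed between the pairs, all with the lower value here. Over all genes 636 (3.50%) differed between the 2 gaps. Those gaps rest on old PH 38 h arrays that spread widely, with mitosis means from 7.09 to 9.08.

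Some interferon-induced genes rose in old livers. Of 39 measured members, 4 rose, 0 fell, and 33 lay above 0, with a median of 0.38. Without the old PH arrays of 24 and 38 h 8 rose, and with quantile normalization repeated 3 did. In 21 of the 39 the groups did not overlap, against 26.8% of all genes tested, of which 1.07% rose. Ifi27, an interferon-inducible membrane protein gene, was 12.42, 12.25 and 12.98 in old PH 48 h livers, against 11.11, 11.21 and 11.01 in young PH 38 h livers. All old arrays lay a log2 unit above the young ones (1.43 ± 0.26, limma adjusted p = 0.00801). Irgm2, an immunity-related GTPase (1.21 ± 0.28), rose with Irf9 (0.92 ± 0.21) and Stat2 (0.76 ± 0.19), transcription factor genes of the interferon response.

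The size of this shift differed between arrays. The mean interferon signal was 8.91, 8.83 and 9.37 in old livers, against 8.75, 8.74 and 8.35 in young livers, with old replicate 3 and young replicate 3 at the 2 extremes. Without old PH 48 h replicate 3 the median of the list was 0.16 and 1 member rose. Without young PH 38 h replicate 3 the median was 0.28, with 1 rise and 1 fall. Leaving out replicate 2 also gave 1 rise, with medians of 0.47 (old replicate 2) and 0.44 (young replicate 2). Without replicate 1 of the young group 2 rose (median 0.44), and without replicate 1 of the old group 3 did (0.37). Untreated livers averaged 9.32 in old (8.97 to 9.97) and 8.87 in young (8.80 to 8.98) on the same genes. Usp18, which damps interferon signalling, and Rtp4, an interferon-induced transporter protein gene, were as far apart (1.31 ± 0.38 and 1.25 ± 0.36) without passing. The chemokine gene Cxcl10 pointed the other way at -1.17 ± 0.62.

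A small set of genes differed in the same direction in untreated livers, measured on separate arrays. Of the 43 genes (0.236%) called between untreated old and young livers, 12 were also called here, 11 higher and 1 lower, and 0 in the opposite direction. They made up 3.48% of the 345 and 27.9% of the 43. Ifi27 differed by 1.29 ± 0.26 before surgery. Nebl, a nebulin-related actin-binding protein gene, read 8.30, 8.02 and 8.36 in old PH 48 h livers, against 7.17, 7.29 and 6.81 in young PH 38 h livers (1.14 ± 0.22, limma adjusted p = 0.0102), and its untreated gap was 1.44 ± 0.22. Bzw2, of a family of translation regulators, had gaps of 1.09 ± 0.26 after PH and 1.60 ± 0.26 in untreated livers, but of its 3 probe sets only the one used was higher in old livers. Wfdc2, a secreted protease inhibitor family gene, had gaps of 0.75 ± 0.16 after PH and 1.62 ± 0.16 in untreated livers. The test of the difference between them did not pass (limma adjusted p = 0.121). Smoc2, a matricellular protein gene (1.01 ± 0.22), and Zfp991, a zinc finger gene (0.90 ± 0.19), completed the 6 leading rises, and Galns, Naip2, Pros1, Rexo4 and Tcf4 were the other members.

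The 1 gene lower in both was Cd163, the macrophage receptor that takes up haptoglobin-bound haemoglobin. Its signal was 6.93, 6.88 and 6.31 in old PH 48 h livers, against 8.23, 8.11 and 7.65 in young PH 38 h livers, without overlap. The fall of 1.28 ± 0.24 (limma adjusted p = 0.00946) stood beside a fall of 1.62 ± 0.24 in untreated livers and one of 1.38 ± 0.24 at 48 h after PH. Cd163 was the 1 of 25 Kupffer cell and macrophage genes that passed, against 1.90% of all genes. The list had a median of 0.10, and its mean signal was 9.38 to 9.51 in old livers, within the 9.03 to 9.64 of young livers.

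**Figure D4:**
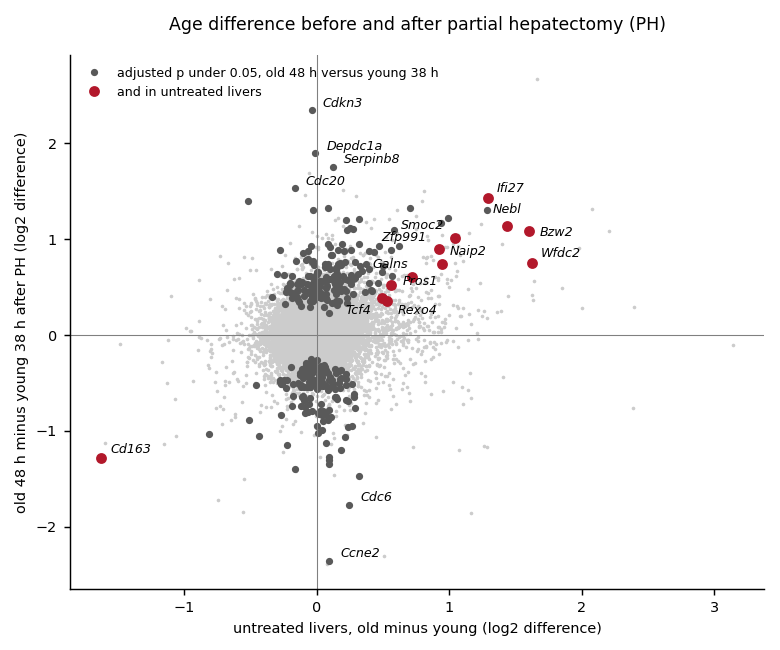
Old minus young difference (log2) in untreated livers (horizontal axis) against the difference between old livers 48 h and young livers 38 h after PH (vertical axis) for 18193 genes; dark points are the 345 genes called after PH and red points the 12 called in both. Ccne2, Cdc6, Cdkn3, Depdc1a, Serpinb8 and Cdc20 lie near 0 on the horizontal axis, while Ifi27, Nebl, Bzw2, Wfdc2 and Cd163 are displaced on both.

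The test of whether the gap after PH differed from the untreated gap passed for 4 genes (0.0220%), with 1990 at an unadjusted p under 0.05. Cdkn3 (2.38 ± 0.43) and Serpinb8 (1.63 ± 0.26) were 2 of them. Serpinb8 read 8.47, 8.75 and 8.18 in old PH 48 h livers, against 6.50, 6.55 and 7.08 in young PH 38 h livers, and its rise of 1.75 ± 0.18 had the lowest adjusted p of the genes named here (1.64e-05). The others were Gmppa, a regulator of GDP-mannose synthesis (0.74 ± 0.12), and the low-signal gene Fscn2, an actin bundler known from the retina (-0.69 ± 0.12). For Gmppa 1 of 5 probe sets had the opposite sign. Ccne2 missed that threshold at -2.45 (limma adjusted p = 0.0779).

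The called genes were also read in sham livers. In old sham 48 h against young sham 38 h livers, with 2 arrays and 1, the genes that rose after PH had a median of 0.23 and 163 of the 194 lay above 0. The genes that fell had a median of -0.31, with 123 of 151 under 0, while the median of all genes was 0.03. That sham comparison called 30 genes (0.165%), and 2 genes (0.0110%) had gaps after PH that differed from the sham gap, neither of them called after PH. Hspb1, a small heat shock protein gene and the 1 of 37 heat shock and ER stress genes that passed, fell by 1.40 ± 0.34 after PH, with 10.43, 10.23 and 10.25 in old livers and 11.99, 12.15 and 10.97 in young livers, and the sham gap was -1.52 ± 0.51, which did not pass. Between these shams the S phase list had a median of 0.06 and the mitosis list one of -0.05.

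The 10 h between sampling times was looked at in clock genes. Of 22 members 0 passed in limma (7 at an unadjusted p under 0.05), 15 lay under 0, the median was -0.33, and in 12 the groups did not overlap. Among all genes tested 15.6% had such an unadjusted p and 26.8% did not overlap. Arntl, for BMAL1, was 9.25, 9.55 and 9.42 in old PH 48 h livers, against 8.66, 8.67 and 8.76 in young PH 38 h livers (0.71 ± 0.36, limma adjusted p = 0.341). Wee1, a clock-controlled kinase that holds back mitosis, stood at -0.94 ± 0.36, and the clock output factor Tef at -0.75 ± 0.26. Between the shams of the same times, Nr1d1, for the clock repressor REV-ERB alpha, differed by 2.73 ± 0.41 (limma adjusted p = 0.00384), a call that rests on the single young sham 38 h array, and after PH by 0.39 ± 0.27. The part of time of day in the other differences was not tested.

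Genes of liver function gave few calls when all arrays were fitted, as did all genes tested, of which 1.90% were called. An unadjusted p under 0.05 was found in 15.6% of all genes. Of 24 hepatocyte identity genes 0 passed in limma (3 at an unadjusted p under 0.05), with a median of 0.05, and the master regulator Hnf4a differed by 0.06 ± 0.08. The lists for cholesterol synthesis (20 genes, median 0.28), bile acid synthesis and transport (34, -0.09), fatty acid oxidation (33, -0.18), amino acid catabolism and the urea cycle (41, -0.05) and the acute phase (27, -0.001) each had 0 calls in limma, and 0, 4, 4, 4 and 4 of their members had an unadjusted p under 0.05. There were also 0 calls among genes of gluconeogenesis and glycolysis, pericentral and periportal zones, male-biased and female-biased expression, fetal liver, ribosome biogenesis, proteasome subunits, hepatocyte growth signalling, early response, senescence, replication-dependent histones and antigen presentation, with medians from -0.16 to 0.13 and 1 to 5 members of each at an unadjusted p under 0.05. More calls came without the old PH arrays of 24 and 38 h. Gluconeogenesis and glycolysis then had 1 rise and 5 falls, bile acid synthesis and transport 2 rises and 1 fall, cholesterol synthesis 2 rises, fatty acid oxidation 2 falls, and P450 and drug metabolism 1 rise and 4 falls. Cyp2c70, which makes muricholic acids in mice, was the 1 of 56 P450 and drug metabolism genes that rose (0.49 ± 0.12). Malic enzyme (Me1), which supplies NADPH for lipid synthesis, fell by 0.83 ± 0.15, with 10.51, 10.46 and 10.32 in old livers, against 11.34, 11.33 and 11.12 in young livers. It was the 1 of 27 genes of fatty acid and triglyceride synthesis that passed. Sod2, the mitochondrial superoxide dismutase, fell by 0.39 ± 0.10, the 1 of 32 antioxidant genes that did. Among 22 p53 targets, Ei24 rose (0.35 ± 0.09) and Pidd1 fell (-0.32 ± 0.08), and the CDK inhibitor Cdkn1a differed by -0.06 ± 0.41. Of 16 alternative settings, 11 lost the call of Sod2, 11 that of Ei24, 6 that of Cyp2c70 and 5 that of Pidd1. Only 1 of the 4 probe sets of Sod2 passed.

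**Figure D5:**
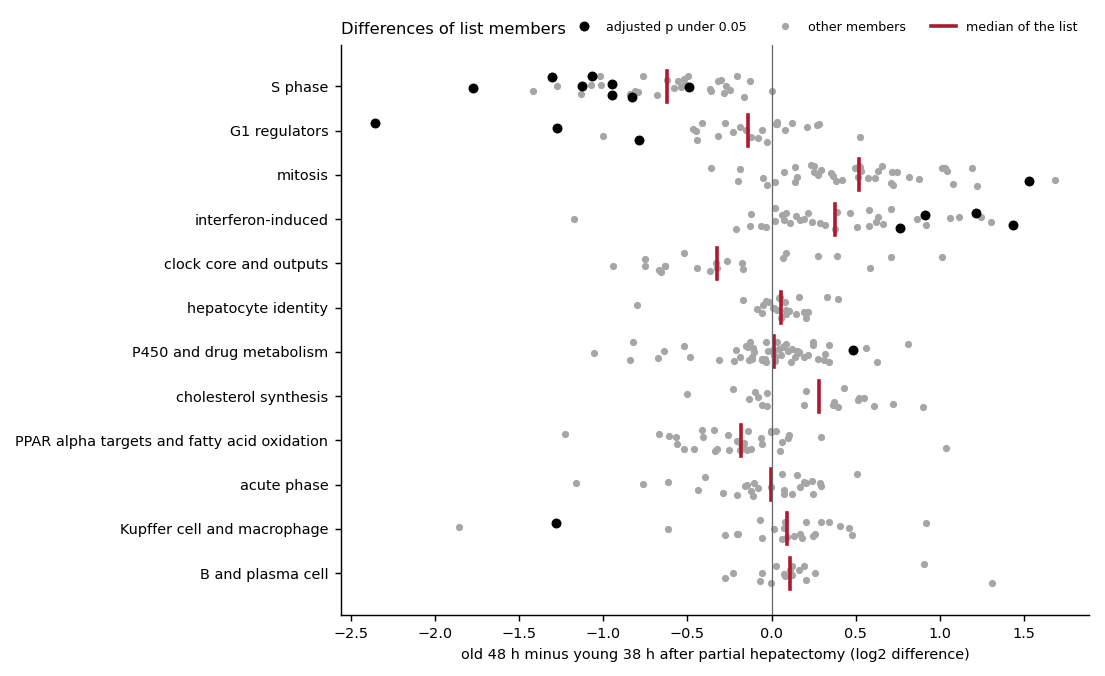
Difference between old livers 48 h and young livers 38 h after PH (log2, horizontal axis) for the members of 12 gene lists; black points passed an adjusted p of 0.05, grey points did not, and red bars are list medians. S phase genes lie under 0 (median -0.62), mitosis (0.52) and interferon-induced genes (0.38) mostly above, and hepatocyte identity genes near 0 (0.05).

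Scara5, a ferritin receptor, was 10.28, 11.35 and 11.32 in old PH 48 h livers, against 9.80, 9.73 and 9.24 in young PH 38 h livers (1.39 ± 0.33). Lama3, a laminin chain of basement membranes (1.33 ± 0.27), Cav2, a caveolar coat protein (1.33 ± 0.24), and Reln, a secreted glycoprotein made by stellate cells in the liver (0.88 ± 0.22), rose too. Reln was the 1 of 29 stellate cell and matrix genes that passed, against 1.90% of all genes. The list had a median of 0.26, and its mean signal was 9.33 to 9.76 in old livers and 9.25 to 9.47 in young livers. Scara5, Lama3, Cav2 and Reln each have a second probe set, and its difference was -0.04, -0.10, 0.14 and 0.04, none passing. Without the old PH arrays of 24 and 38 h 4 of the 29 stellate cell and matrix genes rose, and with quantile normalization repeated 0 did. Tifa, an adaptor of NF-kappaB signalling (1.31 ± 0.30), Cyb561, a cytochrome that passes electrons across membranes (1.22 ± 0.31), and Tmem218, a ciliary membrane protein gene (1.20 ± 0.19), rose as well.

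Markers of other cells gave few calls, as did all genes tested (1.90% called and 15.6% at an unadjusted p under 0.05). For B and plasma cells 0 of 17 genes passed in limma (2 at an unadjusted p under 0.05). The mean signal was 7.20 to 7.30 in old livers and 7.07 to 7.13 in young livers. The immunoglobulin heavy chain gene Ighm stood at 1.31 ± 0.57 and the list member Derl3 at -0.07 ± 0.34. Of the 11 probe sets of Ighm 7 were higher in old livers, and 0 passed. Xcl1, a lymphocyte chemokine gene with signals near 6, fell by 0.25 ± 0.06 as the 1 of 25 T and NK cell genes. The neutrophil gene S100a9 was 8.16, 8.95 and 8.75 in old livers, against 10.68, 10.83 and 7.97 in young livers, where replicate 3 again stood apart, and 0 of 14 neutrophil genes passed (2 at an unadjusted p under 0.05). Sinusoidal endothelial, bile duct, adipose, erythroid and pancreas lists had 0 calls in limma, with medians between -0.15 and -0.04 and 1, 2, 0, 0 and 0 members at an unadjusted p under 0.05. The part of these cells in the differences above was not tested.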

How the data were processed

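Liver RNA of 35 mouse samples was hybridised to Affymetrix moe430_2 arrays, 1 sample per array, after labelling of 5 µg of total RNA, per the labels. The deposited values are log2 signals made with RMA, per the submitters' processing notes. RMA includes background correction, quantile normalization and a summary over the probes of a set. The RMA version is not given in the sources used here, nor is the set of arrays it was run on. The file holds 45101 probe sets, 64 of them controls. The platform table gave 1 gene symbol to 34945 probe sets and several to 932, which were left out, as were 9160 unlisted ones. Of 18193 genes, the 9010 with several probe sets were represented by the one with the highest mean over all arrays. No filter was applied to dim genes.

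A limma 3.58.1 model (R 4.3.3) with a mean for each of 14 groups used all 35 arrays (21 residual and 3.29 prior degrees of freedom), so that the spread is shared between groups. A gene passed at an adjusted p under 0.05 (Benjamini-Hochberg, over all genes). The same fit gave the untreated, sham and other PH contrasts and the differences between gaps. A group of 1 array (young sham 38 h) is assumed to vary like the others. The comparison and its 39 gene lists were chosen with earlier results of these data known. Lists are described by counts and medians, with no test. Named genes are the 12 largest rises and falls without overlap, up to 6 genes each way that differed beyond, or in the same direction as, untreated livers, up to 5 called members of a list (otherwise its 2 brightest) and a panel of 30. Ccnb2, Chaf1b, Cxcl10, Fen1, Galns, Naip2, Pola2, Pros1, Rexo4, Rtp4, Slbp, Tcf4, Tyms, Ube2c, Usp18, Wee1, Car9 and Cox6b2 lie outside that rule and were chosen after their values were seen. Arhgef39, Cdc25b, Nek2, Pttg1 and Ska3, named only for their promoters, lie outside it too. The code was tested on simulated data. Promoters are RefSeq windows of GRCm38.p6. The sample titles number the replicates without saying that equal numbers are paired. Deviations of same-numbered old 48 h and young 38 h arrays correlated at 0.215, -0.095 and 0.249. With 3 arrays per group these values cannot settle whether arrays were paired, and the main fit did not pair them. Alternatives changed the probe set, unit, filter, scaling, variance prior, array weights, block and arrays fitted. Figures used matplotlib 3.10.9 in Python 3.11.15.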

Additional observations from a re-analysis of the deposited data

Results flagged for a closer look

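6 genes had a gap between old PH 48 h and young PH 38 h livers that differed, in limma, from the age gap of untreated livers or from that of sham livers. Against untreated livers the gap was larger by 2.38 ± 0.43 in Cdkn3 (adjusted p = 0.0477), by 1.63 ± 0.26 in Serpinb8 (0.0145) and by 0.745 ± 0.12 in Gmppa (0.0145), and lower by -0.687 ± 0.12 in Fscn2 (0.0477). Each of these also passed in the comparison itself. In Cdkn3 the untreated gap was -0.03 and in Serpinb8 0.12. Gmppa was lower in untreated old livers (-0.20) and Fscn2 higher (0.22), without passing.

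Against sham livers, Car9, a carbonic anhydrase gene (0.996 ± 0.14, adjusted p = 0.00402), and Cox6b2, a testis-type cytochrome oxidase subunit gene (2.133 ± 0.31, adjusted p = 0.00402), passed. Neither passed between old PH 48 h and young PH 38 h livers, where Car9 differed by 0.05 and Cox6b2 by 0.36. Car9 read 7.60 and 7.42 in old sham 48 h livers, against 8.45 on the single young sham 38 h array.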

How the results depend on the processing

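The count of 345 genes was 544 with the probe set of largest interquartile range, 724 over all probe sets, 3259 with array weights, 1000 without the old PH arrays of 24 and 38 h, 887 without the 2 arrays farthest from their group (old PH 24 h replicate 1 and old PH 38 h replicate 3, chosen after seeing the data) and 51 to 295 with 1 of the 6 arrays left out. With quantile normalization repeated it was 304, split into 127 higher and 177 lower (41.8% higher, against 56.2%), and in a fit on the 6 arrays alone 288, with 193 higher (67.0%). The 4 genes that differed beyond the untreated gap became 2 with the probe set of largest interquartile range, 9 over all probe sets, 2 with the filter at a mean of 6, 2 with arrays centred, 1 with quantile normalization repeated, 1102 with array weights, 105 without the old PH arrays of 24 and 38 h, 27 on the arrays compared alone, 80 without the 2 farthest arrays and 0 to 68 with 1 array left out. The 2 genes beyond the sham gap were 9 with quantile normalization repeated and 2 to 5 with 1 array left out. Untreated calls (43) were 125 and 124 without those old PH arrays or the 2 farthest arrays, and 22 to 81 with 1 array left out. Without the old PH arrays of 24 and 38 h, old against young at 48 h gave 60 calls and young 48 h against 38 h gave 993. Leaving out 1 array gave 0 to 10 for old against young at 48 h, 49 to 678 at 38 h, 28 to 353 for young 48 h against 38 h and 33 to 811 for old 38 h against young 24 h. The replicate number as a block gave 281 calls for the comparison and 2 beyond the untreated gap. Whether the numbers pair the arrays is not known. Of 42 named genes past the threshold, 8 kept it under every alternative run for them (Cav2, Ccne1, Ccne2, Cdkn3, Ifi27, Me1, Serpinb8 and Tmem218). The filter at a mean of 6 left out Ccne2, Cdc6, Depdc1a, Fscn2 and Xcl1, so that Ccne2 was run under 15 settings and not 16. With 1 array left out 32 genes lost the threshold, 28 of them without replicate 2 of the old group and 28 without replicate 2 of the young group. Gmppa reversed with the probe set of largest interquartile range (-0.232). With array weights the weight estimation did not converge fully. The cause of these shifts was not tested. Probe sets with low signal, among them the 40 called genes with a mean under 6, have no detection call here.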
